A study of Mus musculus with 20 samples.

Results

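Genes that mark or build the B-cell lineage were followed in lymph nodes of mice in which B cells do not mature. The members were the rows of the deposited gene count table named Ms4a1, Cd79a, Cd79b, Jchain, Ighm, Igkc, Pax5, Ebf1 and Mzb1, that is 9 of 56258 genes, and all 9 passed the filter on low counts that left 29411 genes for testing. Whole nodes were taken at 9 weeks of age from Rag1-/- mice of the strain B6.129S7-Rag1tm1Mom/J, and every group, the reference included, carries this deletion. The groups were nodes draining the duodenum, jejunum, ileum and ceco-colon, with the inguinal node, which drains skin, as the reference outside the gut. Each of the 5 positions gave 4 libraries of polyA RNA, 20 in all, and no node of a Rag1-sufficient mouse was analysed here.

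Rag1 and Rag2 together cut and join the V, D and J segments of antigen receptor genes, and without them neither an immunoglobulin heavy chain nor a light chain is assembled and B cells stop at an early progenitor stage. Constant-region segments lie downstream of the J segments, and an unrearranged locus can also be transcribed. Several genes of the lineage are used outside it as well: Ebf1 in stromal and adipose precursors, Mzb1 in plasmacytoid dendritic cells. In whole-node RNA, fewer cells of a type and less RNA per cell cannot be told apart.

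Total estimated counts were 148.2 to 304.6 M per library, and levels are given in CPM (counts scaled to a common library total with edgeR's TMM factors). Nothing in the labels ties a library to an animal, and p-values measure the spread between these libraries only. Rag1 itself was counted at 1.98 to 3.05 CPM in the 16 gut-draining libraries and at 2.83 to 3.43 CPM in the 4 inguinal ones. Gene counts do not show which part of the gene the reads came from, so this level does not check the deletion. Duodenal libraries 1 and 2 stood apart, with 3.31% and 1.88% of CPM on a list of pancreatic acinar genes, against at most 0.00898% in any other library.

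Per length, in TPM (counts divided by transcript length and scaled to a common total), the members differed widely in level over the 20 libraries. The mean level was 236.6 TPM for Ighm, 28.8 for Igkc, 12.7 for Cd79b, 9.24 for Ebf1 and 3.903 for Mzb1. Ms4a1 followed at 1.09 TPM, Cd79a at 0.618, Jchain at 0.551 and Pax5 at 0.0667. The constant region of IgM was thus the most abundant member in nodes without Rag1, and Pax5, the factor that commits cells to the B lineage, the least abundant.

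In gut-draining against inguinal nodes, 5 of the 9 members were called at an adjusted p under 0.05 (edgeR quasi-likelihood test, Benjamini-Hochberg adjustment over 29411 genes), beside 26.3% of all genes. Ms4a1 rose, beside 13.4% of all genes called higher, and Ighm, Igkc, Mzb1 and Pax5 fell, beside 12.9% called lower. Of these calls, that of Pax5 was not seen in counts summed from transcripts (0.16, adjusted p = 0.706). That of Mzb1 ended without inguinal library 1 (-0.44, adjusted p = 0.138). The median log2 fold change of the members was -0.20, against 0.00 over all genes tested. The gut-draining and inguinal libraries did not overlap for 2 members, Ms4a1 and Ighm, beside 9.53% of all genes.

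**Figure D1:**
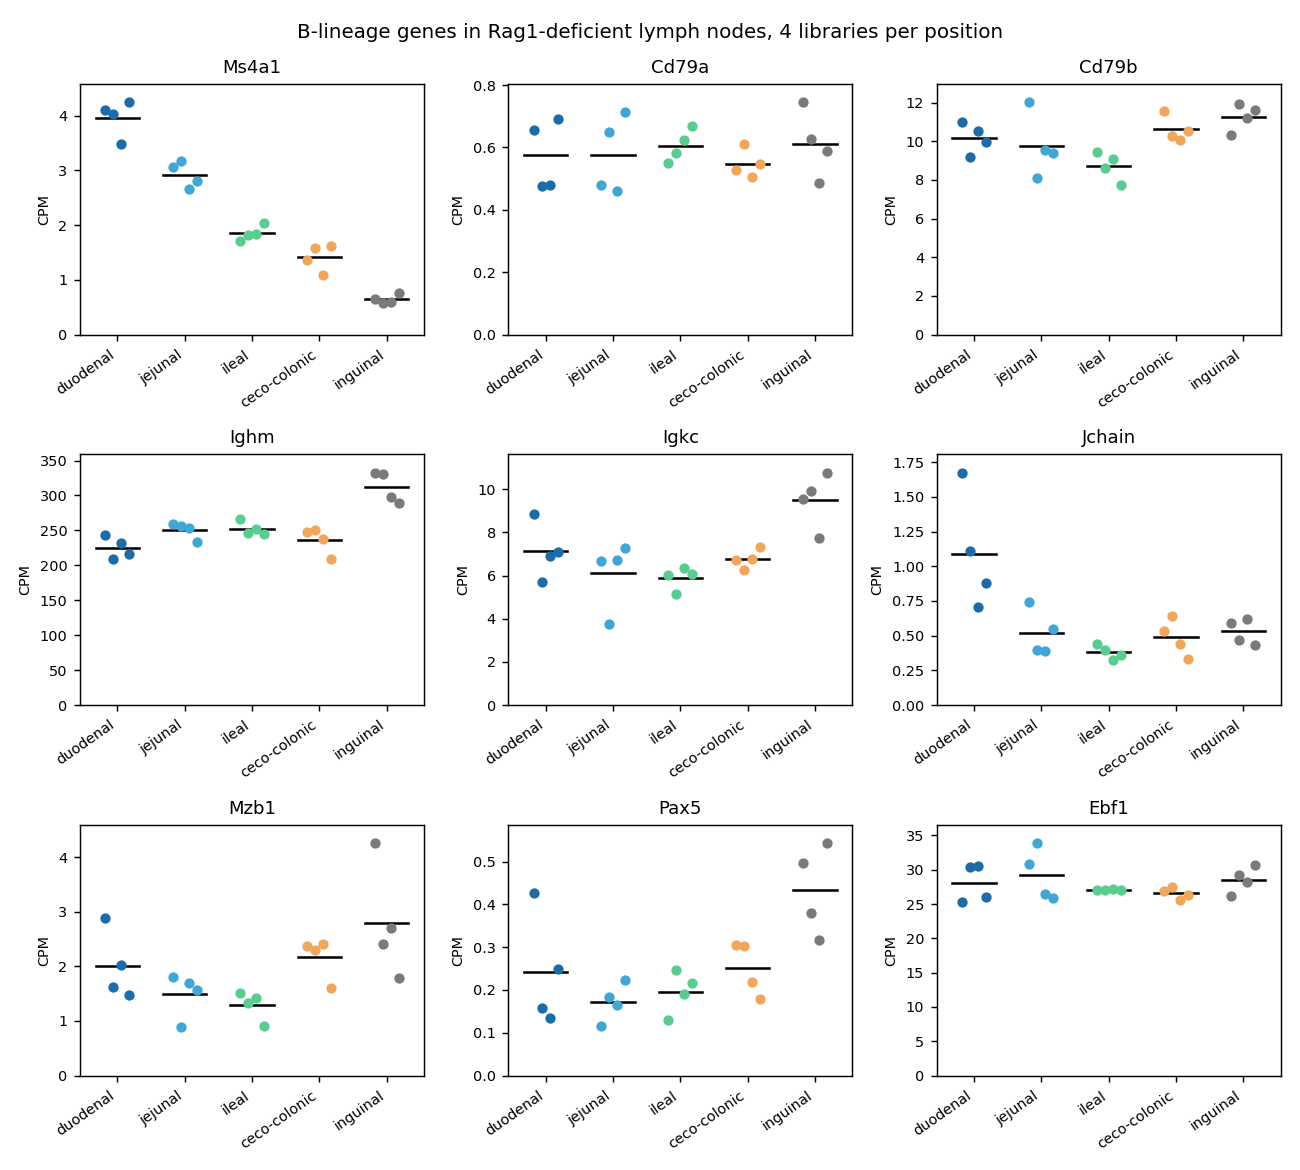
CPM of the 9 members (vertical axes, each from 0) in the 4 libraries of each position (points), with the mean of the position (bar). Ms4a1 steps down from the duodenal libraries, at 3.47 to 4.24 CPM, to the inguinal ones, at 0.585 to 0.756 CPM, while Ighm and Igkc are highest in inguinal nodes and no difference of Cd79a or Ebf1 was called.

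Ms4a1 encodes CD20, a four-span membrane protein of the B-cell surface, and showed the clearest pattern by position. Its deposited counts are split between a protein-coding transcript, Ms4a1-201, and a transcript that keeps an intron, Ms4a1-202, and their difference is shown here at the first junction in the coding sequence that both cover. In the lines below, lower case is the shared exon end and capitals mark the 30 bases that follow it, which are the next exon in the spliced form and the retained intron in the other. The sequences are from GENCODE M21 (GRCm38, minus strand), where the spliced stretch spans chr19:11253251-11254484 and the retained one chr19:11254425-11254484, and each transcript has the same length there as in the deposited tables.
Ms4a1-201: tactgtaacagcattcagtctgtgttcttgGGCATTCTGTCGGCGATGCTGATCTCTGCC
Ms4a1-202: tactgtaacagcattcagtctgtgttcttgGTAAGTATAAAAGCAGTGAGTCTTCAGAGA

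Duodenal libraries 1 to 4 held 4.11, 4.03, 3.47 and 4.24 CPM of Ms4a1, and jejunal libraries 3.07, 3.17, 2.65 and 2.80 CPM. Ileal libraries held 1.71, 1.82, 1.85 and 2.04 CPM and ceco-colonic libraries 1.36, 1.57, 1.09 and 1.63 CPM. The inguinal libraries held 0.659, 0.585, 0.597 and 0.756 CPM. No library of a position overlapped with those of the next position in this order, from the upper small intestine down to the colon and then to the skin-draining node. Gut-draining nodes had 2.54 ± 1.05 CPM (SD, n = 16) against 0.649 ± 0.0780 CPM (SD, n = 4), a log2 fold change of 1.86 ± 0.11 (SE, adjusted p = 1.05e-10), or 3.62-fold.

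Each gut position was above the inguinal node, the duodenal by 6.12-fold, the jejunal by 4.51-fold, the ileal by 2.86-fold and the ceco-colonic by 2.18-fold (largest adjusted p = 1.50e-06). The 4 gut positions differed among themselves (F-test, adjusted p = 1.77e-07), with fitted means spanning 1.49 on the log2 scale. Small intestinal nodes were above ceco-colonic nodes by 0.98 ± 0.11 (log2, SE, adjusted p = 1.34e-06). Between neighbours, duodenal and jejunal nodes were not separated at the threshold (0.44, 95% interval 0.19 to 0.69, adjusted p = 0.0534). This difference passed with DESeq2 (adjusted p = 0.00583), limma-voom (0.0422), summed transcript counts (0.0340) and the replicate number as a block (0.0229). It also passed without duodenal library 3 (0.0276) or ceco-colonic library 3 (0.02845). The other alternative fits, among them that of those positions alone, did not call it. Jejunal were called above ileal nodes (0.66, adjusted p = 0.0440) and ileal above ceco-colonic nodes (0.39, adjusted p = 0.0394), the first being among only 20 genes called in that pair (0.068%). Both of these neighbour calls were fragile: the jejunal to ileal call ended in 14 of 20 fits that left out a library (adjusted p up to 0.192) and the ileal to ceco-colonic call in 5 (ceco-colonic libraries 1 and 3 and ileal libraries 2, 3 and 4, adjusted p up to 0.125). Fitting only the positions compared also ended both, at adjusted p of 0.1565 and 0.08985.

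The coding transcript differed more than the gene. Ms4a1-201 was at 1.04, 0.995, 1.11 and 1.23 TPM in the duodenal libraries and at 0.0680, 0.0573, 0.0584 and 0.0350 TPM in the inguinal ones. The inguinal values rest on 10.9 to 35.6 estimated counts per library, and the gut-draining ones on 101.4 to 590 counts. In a fit over all 89907 transcripts tested, in which 11.1% were called in this comparison, Ms4a1-201 was higher in gut-draining nodes by 3.45 ± 0.21 (log2, SE, adjusted p = 3.18e-09), or 10.9-fold. By position it was 22.5-fold above the inguinal level in duodenal nodes, 14.98-fold in jejunal nodes, 8.03-fold in ileal nodes and 5.27-fold in ceco-colonic nodes. The intron-retaining Ms4a1-202 rose by 1.17 ± 0.14 (log2, SE, adjusted p = 1.13e-05), or 2.24-fold.

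As a share of the gene's estimated counts, Ms4a1-201 took 52.3% ± 8.86 (SD, n = 16) in gut-draining and 18.4% ± 5.65 (SD, n = 4) in inguinal nodes. The shares ran from 33.9% to 65.2% in the gut-draining libraries and from 9.92% to 21.9% in the inguinal ones, without overlap. The difference of 34.0 percentage points gave p = 0.000206 in a two-sided exact permutation test over all 4845 assignments of libraries to the groups, the smallest that this test can give (0.000413 adjusted over 4 such tests). Most of the few inguinal Ms4a1 counts were therefore assigned to RNA that keeps the intron printed above.

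**Figure D2:**
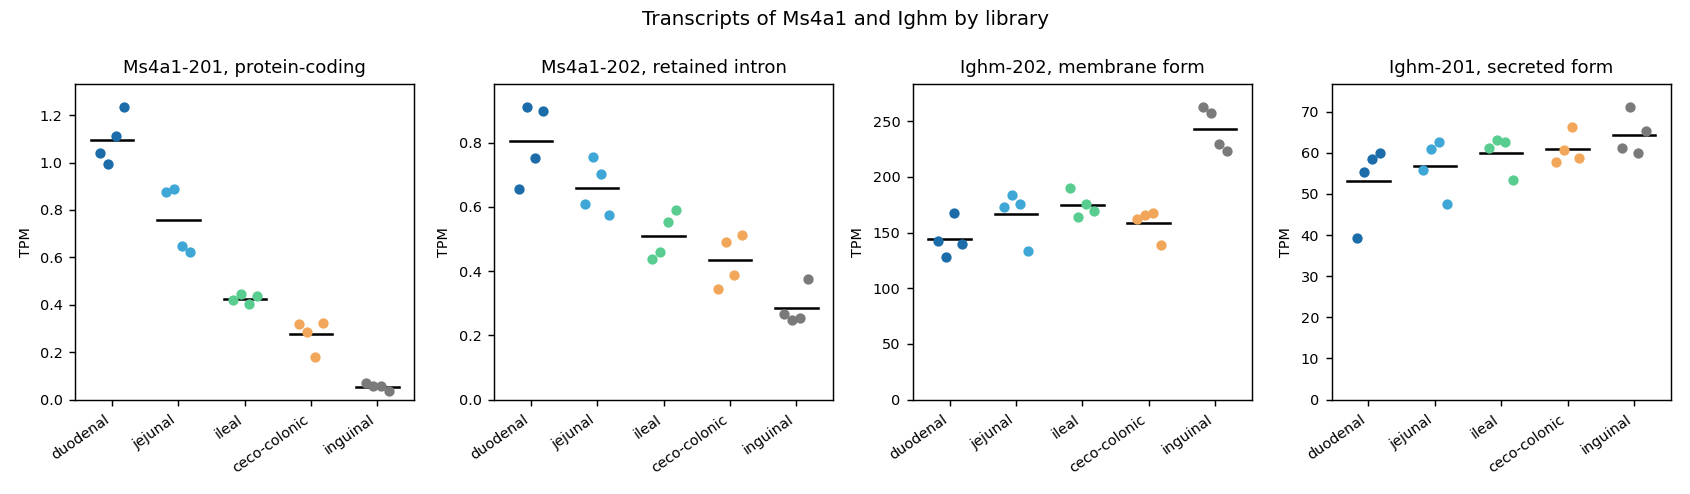
TPM of 2 transcripts each of Ms4a1 and Ighm (vertical axes, each from 0) in the 4 libraries of each position (points), with the position's mean (bar). The coding Ms4a1-201 falls from 0.995 to 1.23 TPM in duodenal to at most 0.0680 TPM in inguinal libraries, and the membrane form of Ighm is higher in every inguinal library than in any gut-draining one.

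The MS4A family lies in a cluster with Ms4a1. Of its 14 other tested genes, 2 were called higher and 4 lower in gut-draining nodes, beside 13.4% and 12.9% of all genes. The median log2 fold change of the 14 was -0.16. The higher ones were Ms4a14 (0.36, adjusted p = 0.0369) and Ms4a4d (0.33, adjusted p = 0.000291), both far smaller than the change of Ms4a1. Ms4a2, the beta chain of the high-affinity IgE receptor of mast cells, fell by 2.31 and Ms4a8a fell by 1.62 on the log2 scale (adjusted p = 2.59e-07 and 3.23e-12). The Ms4a14 call ended when any of the 4 inguinal libraries, ileal library 2 or 3 or jejunal library 3 was left out (adjusted p up to 0.123), and the call of Ms4a4b (-0.33, adjusted p = 0.0220) without inguinal library 2 (0.129).

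The genes with levels most like Ms4a1 over the 20 libraries, by Pearson correlation of log2 CPM among 13890 genes at 1 CPM or more, were Lrat (0.95), Zfp970 (0.947) and Glp2r (0.946). Lrat makes retinyl esters and Glp2r is the receptor of an intestinal hormone. These values reflect the steps between positions: with the position means removed, the correlations were 0.328, 0.277 and -0.0412. For Cd79a the highest correlation was 0.613, with Tmem79, and for Ighm it was 0.933, with Ifitm10. All libraries share their protocol and the comparison of positions, so these are descriptions only.

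Ighm encodes the constant region of the mu heavy chain, the chain of IgM. Splicing gives a secreted and a membrane-anchored form from the same RNA, and the 2 annotated transcripts share their first 1305 bases and then part. The lines below give the last 30 shared bases in lower case and, in capitals, the coding bases that follow, up to the stop codon for the secreted Ighm-201 and the first 60 for the membrane form Ighm-202. They are from GENCODE M21 (GRCm38, minus strand), at chr12:113420870-113420958 for Ighm-201, where the stretch is continuous, and across an intron at chr12:113419009-113420958 for Ighm-202.
Ighm-201: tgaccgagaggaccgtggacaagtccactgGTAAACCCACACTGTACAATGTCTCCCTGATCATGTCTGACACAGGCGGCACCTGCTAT
Ighm-202: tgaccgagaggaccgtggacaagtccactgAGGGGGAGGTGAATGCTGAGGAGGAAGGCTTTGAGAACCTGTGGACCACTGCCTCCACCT

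Inguinal libraries 1 to 4 held 332.6, 330.9, 297.5 and 289.9 CPM of Ighm. Duodenal libraries held 243.1, 208.9, 232.2 and 216.4 CPM and jejunal libraries 259.7, 256.5, 253 and 233.9 CPM. Ileal libraries held 266.5, 247, 252.3 and 244.3 CPM and ceco-colonic libraries 248.3, 250.6, 237.5 and 209.5 CPM. Every inguinal library lay above every gut-draining one, and the 4 gut positions overlapped except that the duodenal libraries all lay below the ileal ones. Ighm fell by 0.38 ± 0.05 on the log2 scale in gut-draining nodes (SE, adjusted p = 1.10e-05), so inguinal nodes had 1.30 times the level. The F-test among gut positions did not pass (adjusted p = 0.195).

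The fall was carried by the membrane form. Ighm-202 was at 223.6 to 262.8 TPM in inguinal and 127.9 to 189.9 TPM in gut-draining libraries, and its counts fell by 0.47 ± 0.07 (log2, SE, adjusted p = 0.000139). Ighm-201, the secreted form, was at 59.8 to 71.1 TPM in inguinal and 39.2 to 66.3 TPM in gut-draining libraries, and its counts differed by -0.03 ± 0.05 (log2, SE, adjusted p = 0.775). The membrane form took 76.3% ± 2.20 of Ighm counts in gut-draining (SD, n = 16) and 81.4% ± 1.45 in inguinal nodes (SD, n = 4). This difference of -5.04 percentage points gave p = 0.000619 in the two-sided exact permutation test (0.000826 adjusted over 4 tests), with the ranges of 72.9% to 80.8% and 79.9% to 83.3% overlapping.

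The heavy J segments, which lie just upstream of the mu constant region and which Rag1 would join to a D segment, fell as well. Their 4 sequences, from GENCODE M21 (GRCm38, minus strand), are shown because reads of these short stretches were counted in every library although the enzyme that joins them is missing. Capitals mark the stretch TGGGG, then 4 bases of any kind, then GG, searched on the printed strand only, which spells the tryptophan-glycine motif of J segments. They lie at chr12:113429781-113429833, chr12:113429468-113429515, chr12:113429085-113429132 and chr12:113428514-113428567 in the order given. These segments, the V genes and the ratios to Ighm were singled out after their values were seen.
Ighj1-201: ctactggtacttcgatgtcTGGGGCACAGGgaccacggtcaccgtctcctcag
Ighj2-202: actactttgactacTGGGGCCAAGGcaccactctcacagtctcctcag
Ighj3-201: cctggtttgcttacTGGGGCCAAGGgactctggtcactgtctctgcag
Ighj4-201: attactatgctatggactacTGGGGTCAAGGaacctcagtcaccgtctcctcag

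Summed over the 4 J segments, gut-draining nodes had 3.08 ± 0.518 CPM (SD, n = 16) and inguinal nodes 6.998 ± 0.968 CPM (SD, n = 4), from 438 to 2184 estimated counts per library. Each segment fell in the transcript fit, Ighj1 by 1.11, Ighj2 by 1.43, Ighj3 by 1.38 and Ighj4 by 1.13 on the log2 scale (largest adjusted p = 1.76e-05). Per 100 Ighm counts, the libraries held 1.04 to 1.68 J counts in gut-draining and 2.11 to 2.49 in inguinal nodes, without overlap (exact permutation p = 0.000206, two-sided, the smallest possible, and 0.000413 adjusted over 4 tests). The J segments thus fell more than the constant region beside them.

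V genes were hardly counted. Of 113 heavy V genes in the tables, 19 to 30 had any count in a library, and their sum was 90 to 176 estimated counts, or 0.490 to 0.804 CPM. That sum came to 0.171 to 0.358 counts per 100 Ighm counts over the 20 libraries. It was 0.591 ± 0.0822 CPM in gut-draining (SD, n = 16) and 0.667 ± 0.116 CPM in inguinal nodes (SD, n = 4), and the ranges overlapped. V genes are close copies of each other, so single V genes are not given.

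**Figure D3:**
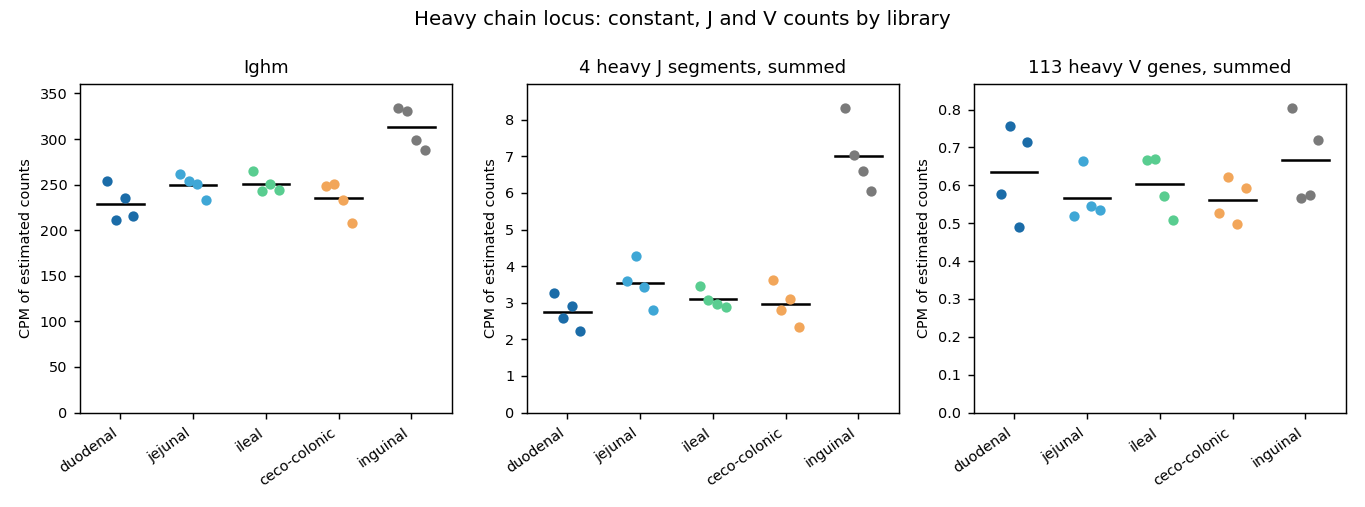
CPM of estimated transcript counts for Ighm, for the 4 heavy J segments summed and for 113 heavy V genes summed (vertical axes, each from 0), in the 4 libraries of each position (points) with the mean (bar). Ighm lies at 207.9 to 334 CPM, the J segments at 2.24 to 8.32 CPM and highest in inguinal nodes, and the V genes at 0.490 to 0.804 CPM over all positions.

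Igkc encodes the constant region of the kappa light chain. The inguinal libraries held 9.53, 9.92, 7.76 and 10.8 CPM, and the gut-draining libraries ran from 3.76 CPM in jejunal library 2 over a median of 6.69 CPM to 8.87 CPM in duodenal library 1. The groups overlapped only through that duodenal library, which lay above the lowest inguinal one. Igkc fell by 0.56 ± 0.12 (log2, SE, adjusted p = 0.00176), and the F-test among gut positions did not pass (adjusted p = 0.508). The sum over 100 kappa V genes was 53 to 154 estimated counts per library. Per 100 Igkc counts it was 4.53 to 8.33 in gut-draining and 3.30 to 4.43 in inguinal libraries, without overlap. In CPM the sum overlapped, at 0.258 to 0.543 in gut-draining and 0.337 to 0.418 in inguinal libraries. The difference in the ratio was not tested.

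Other immunoglobulin constant regions moved in both directions, 4 higher and 2 lower of 9 tested, with a median log2 fold change of 0.46. Igha, the constant region of IgA, was at 0.811 CPM in gut-draining and 0.0287 CPM in inguinal nodes (4.67 ± 0.30, adjusted p = 2.70e-10), on 74 to 288 and 3 to 10 estimated counts per library. Ighg3 was at 1.56 against 0.144 CPM (3.34 ± 0.21, adjusted p = 1.98e-10), on 13 to 52 counts per inguinal library, and Ighg2c at 0.877 against 0.215 CPM (1.98 ± 0.19, adjusted p = 1.08e-07). Ighd, which is transcribed together with Ighm, fell by 0.67 (adjusted p = 2.40e-07). These genes share sequence with each other, so the split of reads among the Ighg genes is uncertain. Igha, Ighg3 and Ighg2c were thus higher in the nodes in which Ighm and Ighd were lower, and their mean levels stayed below that of Ighd, at 5.43 CPM.

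Cd79a and Cd79b encode the signalling pair of the B-cell receptor, but their levels were far apart, at 0.618 and 12.7 TPM. Cd79a lay between 0.460 and 0.714 CPM in gut-draining and between 0.485 and 0.745 CPM in inguinal libraries, with a log2 difference of -0.09 (95% interval -0.37 to 0.19, adjusted p = 0.695). Cd79b ran from 7.72 to 12.02 CPM in gut-draining libraries and stood at 10.31, 11.95, 11.19 and 11.6 CPM in inguinal ones. Its difference of -0.20 (95% interval -0.36 to -0.04) missed the threshold at adjusted p = 0.0592, and passed with DESeq2 (0.0441), with counts summed from transcripts (0.0209) and with the replicate number as a block (0.0310). It also passed without library 1 of the duodenal, jejunal or inguinal nodes (0.0461, 0.00980 and 0.0487). Only the ileal position was called for Cd79b (-0.37, adjusted p = 0.00895), and the difference from the other positions was not called in any pair (the lowest adjusted p, 0.0665, was against ceco-colonic nodes, and was 0.0261 to 0.0473 in 6 alternative fits).

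Jchain, which links IgM and IgA into polymers in antibody-secreting cells, differed among the gut positions. Duodenal libraries 1 to 4 held 1.67, 1.11, 0.703 and 0.877 CPM. The jejunal libraries held 0.388 to 0.745, the ileal 0.325 to 0.442, the ceco-colonic 0.334 to 0.642 and the inguinal 0.433 to 0.623 CPM, on 63 to 291 counts per library in all. Gut-draining against inguinal nodes differed by 0.10 (log2, 95% interval -0.33 to 0.54, adjusted p = 0.776), whereas the F-test among gut positions passed (adjusted p = 0.000802) and duodenal nodes were above inguinal nodes by 1.04 ± 0.26 (SE, adjusted p = 0.00517). The 2 highest libraries were those with pancreatic transcripts. Without them the F-test gave adjusted p = 0.0549 and duodenal against inguinal nodes 0.57 (adjusted p = 0.165), while the remaining duodenal libraries still held more than any inguinal library. Jejunal library 1, the highest jejunal one at 0.745 CPM, had the next highest share of acinar genes (0.00898% of CPM). The 3 genes most like Jchain were Fam133b (r = 0.858), Fra10ac1 (0.855) and Sycn (0.854). With position means removed, these correlations were 0.668, 0.751 and 0.757. Sycn was at 33.8 CPM on average over the 16 gut-draining libraries and at 0.0263 CPM in inguinal nodes. The first mean includes duodenal libraries 1 and 2 with their pancreatic transcripts. The part of pancreatic tissue in the Jchain result was not tested further. Jchain was also called in duodenal against ileal (1.51, adjusted p = 0.00141), ceco-colonic (1.17, 0.00356) and jejunal nodes (1.06, 0.0314), and without the 2 libraries the ceco-colonic call (0.70, 0.111) and the jejunal call (0.59, 0.468) ended. The jejunal call also ended without duodenal library 1 or 2, or jejunal library 2, 3 or 4 (adjusted p up to 0.101). Fitting only the duodenal and jejunal libraries ended it as well, at adjusted p = 0.2209.

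Mzb1, a chaperone of immunoglobulin assembly in marginal zone B cells, plasma cells and plasmacytoid dendritic cells, was at 4.25, 2.42, 2.70 and 1.78 CPM in inguinal libraries. Gut-draining libraries ran from 0.898 to 2.88 CPM, with a median of 1.61 CPM, and overlapped with the inguinal ones. Mzb1 fell by 0.71 ± 0.20 (log2, SE, adjusted p = 0.0101). Inguinal library 1 decided this call: without it the difference was -0.44 (adjusted p = 0.138). By position the fall was called in jejunal (-0.90, adjusted p = 0.0181, ended without inguinal library 1 or jejunal library 2 at up to 0.0971) and ileal nodes (-1.11, adjusted p = 0.00419).

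The gene most like Mzb1 was Cox6a2 (r = 0.936 over 20 libraries, and 0.928 with position means removed), followed by Pdzd4 (0.931 and 0.904) and Klk1b27 (0.922 and 0.853). Cox6a2 is a mitochondrial subunit known from muscle and from plasmacytoid dendritic cells, and it was on the marker list for that cell type. Of the 18 genes of that list, 5 were called higher and 7 lower in gut-draining nodes, with a median of -0.07. Atp1b1 fell by 0.95, Cox6a2 by 0.94 and Smim5 by 0.86, while Irf7 rose by 0.78, Bst2 by 0.42 and Pacsin1 by 0.93 (log2, largest adjusted p = 0.00475). The genes of the list thus went in both directions. No gene of the list was at 0 in any library, and its summed level was 1265 to 2118 CPM in gut-draining and 1287 to 1538 CPM in inguinal libraries. The part of these cells in the level of Mzb1 was not tested.

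Pax5 had the lowest level of the members, with 28 to 117 estimated counts per library in the deposited gene table. In inguinal libraries it was at 0.497, 0.381, 0.317 and 0.543 CPM, and in gut-draining libraries at 0.116 to 0.426 CPM with a median of 0.203 CPM. The deposited gene values fell by 1.03 ± 0.23 (log2, SE, adjusted p = 0.00193). Counts summed from the transcript tables gave a difference of 0.16 with the opposite sign (adjusted p = 0.706), and the full-length Pax5-201 gave 0.435 ± 0.28 (SE, adjusted p = 0.418). Pax5-201 held 33.97 counts on average in inguinal and 45.3 in gut-draining libraries, and 81.1% and 95.8% of the gene's counts, the rest lying on much shorter transcripts. The gene values are scaled by transcript length, and the fall of Pax5 was not seen in counts without that scaling.

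Ebf1, a factor that opens the B-cell program and is also made by stromal cells, did not differ between positions at the level of the gene. It lay between 25.3 and 33.9 CPM in gut-draining and between 26.1 and 30.7 CPM in inguinal libraries, a log2 difference of -0.04 (95% interval -0.17 to 0.09, adjusted p = 0.686). The 4 ileal libraries were within 27.0 to 27.2 CPM. Differences of single transcripts were called: the coding Ebf1-203, with 6.89% of the gene's counts, was at 0.522 ± 0.164 TPM in duodenal, 1.36 ± 0.356 in ileal and 1.15 ± 0.305 TPM in inguinal nodes (SD, n = 4 each). In the transcript fit its counts differed among the gut positions (F-test, adjusted p = 0.00828) and were lower in duodenal than in ileal (-1.28, adjusted p = 0.00759), ceco-colonic (-0.85, 0.0392) and inguinal nodes (-0.95, 0.0117). The noncoding Ebf1-207, with 1.64% of counts, was higher in duodenal than in ileal nodes (0.78, adjusted p = 0.0309). All these transcript calls include duodenal libraries 1 and 2, which held pancreatic transcripts. The Ebf1 transcripts were not refitted without those libraries or with any other library left out. Ebf3 rose by 0.27 (adjusted p = 0.00215), while Ebf2 and Ebf4 were not called. Of 15 genes of mesenchymal stroma, 7 were higher and 3 lower, with a summed level of 5850 to 7354 CPM in gut-draining and 4947 to 5718 CPM in inguinal libraries, and their part in the level of Ebf1 was not tested.

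By position, 3 members were called in duodenal against inguinal nodes (beside 25.3% of all genes). The jejunal position had 5 (20.9%), the ileal 6 (22.6%) and the ceco-colonic 3 (21%). The jejunal and ileal counts include Pax5 (-1.35 and -1.14), which was not called at either position in counts summed from transcripts (-0.14 and 0.37, adjusted p = 0.816 and 0.449). Ms4a1 and Ighm were called at all 4 positions. Igkc fell in jejunal, ileal and ceco-colonic nodes (-0.64, -0.69 and -0.49), but the ceco-colonic call (adjusted p = 0.0371) ended without any ceco-colonic library or inguinal library 1, 2 or 4 (adjusted p up to 0.111). Among the gut positions, the F-test called 2 members, Ms4a1 and Jchain, beside 21.3% of all genes, and Mzb1 (adjusted p = 0.1199) passed as well with DESeq2 (0.0422) and with the replicate number as a block (0.0139). In small intestinal against ceco-colonic nodes only Ms4a1 was called, 1 of 9 beside 16.6%. In the 6 pairs, Jchain alone was called in duodenal against jejunal nodes (2.83% of all genes called), and both genes in duodenal against ileal (14.6%) and ceco-colonic nodes (16.4%). Ms4a1 alone was called in jejunal against ileal (0.068%), jejunal against ceco-colonic (12.2%) and ileal against ceco-colonic nodes (12.8%). The comparisons with the inguinal node share the same 4 inguinal libraries.

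**Figure D4:**
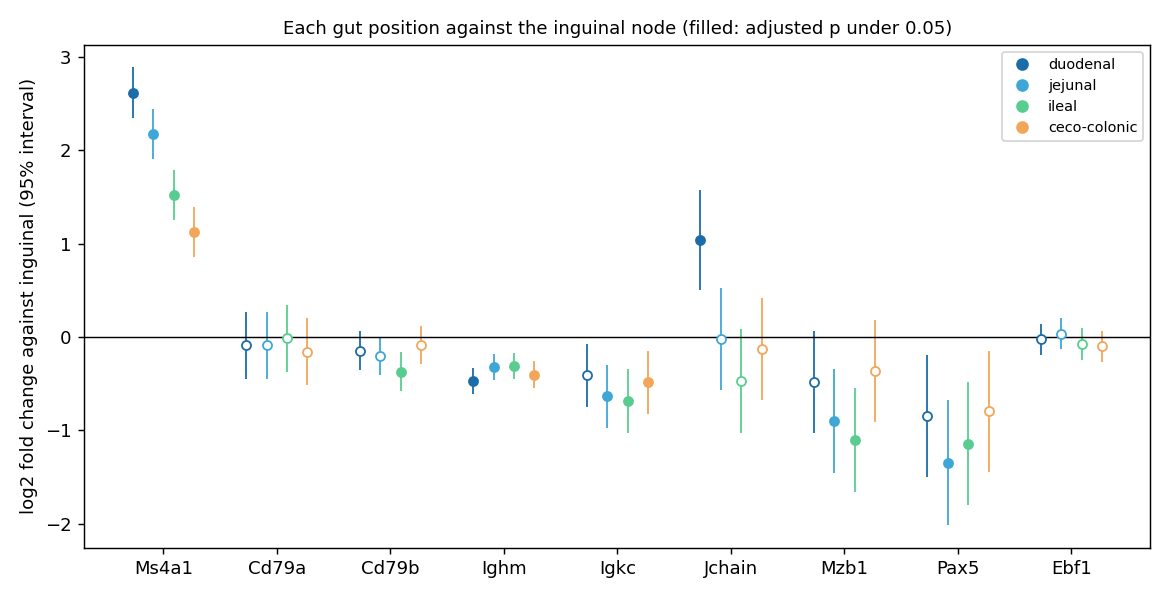
Log2 fold change of each member at each gut position against the inguinal node (points, with 95% intervals), filled where the adjusted p is under 0.05. Ms4a1 lies above 0 at all 4 positions, from 1.12 in ceco-colonic to 2.61 in duodenal nodes, and Ighm below 0 at all 4, from -0.47 to -0.31.

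Of the other genes of the B-cell receptor and surface, 4 of 18 were called higher and 6 lower in gut-draining nodes. Over all genes, 13.4% were called higher and 12.9% lower, and these shares stand beside the counts of every gene list here. The median log2 fold change of the 18 was 0.05. Cxcr5, the receptor that brings B cells to follicles, rose by 1.84 ± 0.23 (adjusted p = 3.60e-06), with 3.71 CPM in gut-draining and 1.003 CPM in inguinal nodes. Tnfrsf13c, the BAFF receptor, rose by 0.44 (adjusted p = 0.00820), a call that ended without inguinal library 2 or 3 (0.0501 and 0.0561). Fcer2a, the low-affinity IgE receptor, fell by 1.02, Fcrla by 0.93 and Cd37 by 0.60 (largest adjusted p = 0.000158).

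Of 15 genes of B-cell receptor signalling, 9 were called higher and 1 lower, with a median of 0.26. Blk, a Src-family kinase of B cells, was at 1.84 CPM in gut-draining and 0.474 CPM in inguinal nodes (1.87 ± 0.20, adjusted p = 3.56e-07), a change close in size to that of Ms4a1. Swap70 rose by 0.78, while the adaptor Blnk fell by 0.30 (adjusted p = 0.00151).

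Of 14 transcription factors of the lineage, 4 were called higher and 6 lower. Spib rose by 0.59 and Bcl6 by 0.55, whereas Myb, a factor of progenitors, fell by 1.19, the B-cell coactivator Pou2af1 by 0.82 and Bcl11a by 0.50 (largest adjusted p = 0.00693). Of 13 tested genes of early B-cell development, 1 was higher and 5 lower, with a median of -0.29. Igll1, a part of the surrogate light chain, was at 0.0838 CPM in gut-draining and 0.340 CPM in inguinal nodes (adjusted p = 0.00510), and it and Vpreb3 and Lin28b, also lower, were under 0.5 CPM and lie outside the rule for naming genes. Rag1 fell by 0.35 (adjusted p = 0.00828) and Rag2 did not pass (0.04, adjusted p = 0.896). Il7r, the receptor that B-cell progenitors and innate lymphoid cells need, fell by 0.29 (adjusted p = 0.0128, and 0.0671 without inguinal library 1).

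Of 15 genes of plasma cells, 1 was higher and 4 lower, with a median of 0.01. Tnfrsf17, the survival receptor BCMA of plasma cells, fell by 3.13 ± 0.18 (adjusted p = 5.28e-11), with 0.981 CPM in inguinal nodes and 0.114 CPM in gut-draining ones. Irf4 fell by 0.65 and Cd28 by 0.88. Among factors that attract B cells or keep them alive, 3 of 14 were higher and 4 lower: Cxcl13, the ligand of Cxcr5, fell by 2.89 ± 0.20 (adjusted p = 7.47e-10), from 195.6 to 33.6 CPM, and Tnfsf13b, which encodes BAFF, fell by 0.43, while Il6 rose by 2.67. The receptors Cxcr5 and Tnfrsf13c were thus higher, and their ligands lower, in gut-draining nodes.

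**Figure D5:**
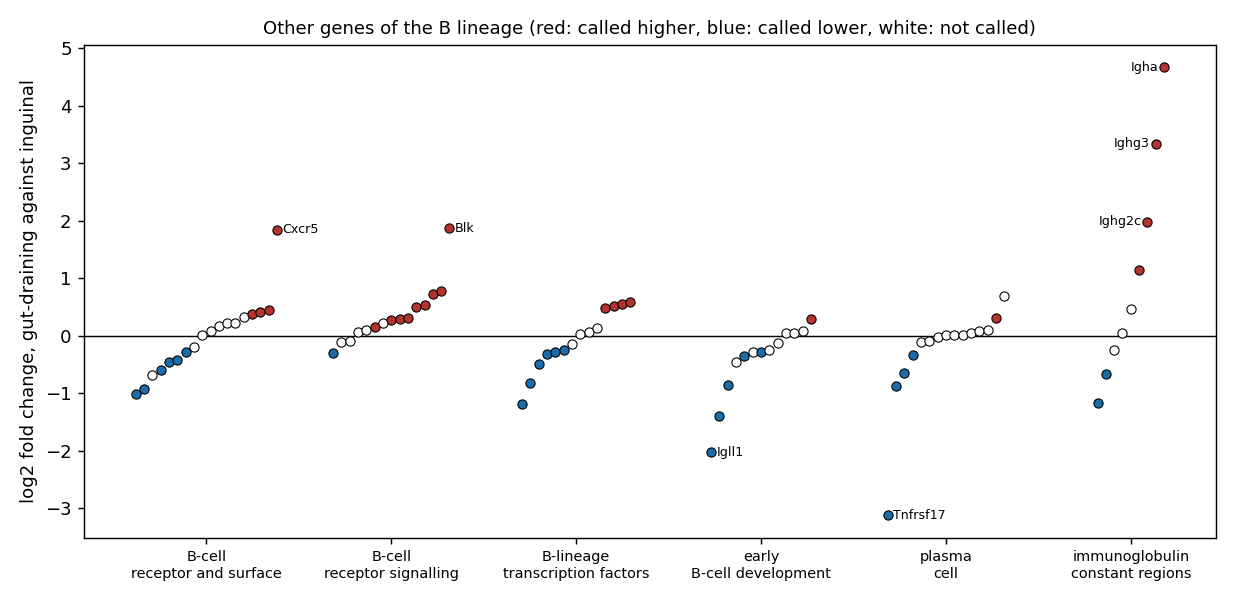
Log2 fold change in gut-draining against inguinal nodes (vertical axis) of the tested genes of 6 lists of the B lineage (horizontal axis), sorted within each list, red where called higher, blue where called lower and white where not called. Igha, Ighg3, Ighg2c, Blk and Cxcr5 lie highest, and Tnfrsf17 and Igll1 lowest.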

How the data were processed

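PolyA RNA of whole lymph nodes was measured in 20 libraries, 4 for each of 5 positions, grouped by the labels. Per the labels' protocols, a PicoPure kit gave the RNA and a NEBNext poly(A) kit the libraries. The submitters' processing notes name kallisto, edgeR and limma, and GRCm39 and mm10 as builds, with versions and roles not given in the sources used here, and whether strand was used in counting is not given either.

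The deposited gene table holds expected counts (estimated counts per gene, scaled by transcript length), and the deposited transcript tables hold expected counts and TPM per transcript. No 2 libraries were identical. Counts were rounded, filtered with filterByExpr (minimum count 10, minimum total 15) and fitted with edgeR 4.0.16 (R 4.3.3), TMM normalization and 1 mean per position, all 20 libraries in 1 quasi-likelihood fit, with Benjamini-Hochberg adjustment over all genes and a threshold of 0.05. SE and 95% intervals are model-based. Low genes rest on few counts, and counts carry no molecular identifiers. The 149419 transcripts were fitted alike, after the gene results were seen, and reads of overlapping transcripts are split by estimation. Shares were compared by exact permutation of libraries. A prior count of 2 entered log2 CPM. The procedure was tested on simulated data.

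Replicate numbers were not treated as pairs, since the labels do not state it and a fixed rule was not met. In 0 of 10 position pairs were all correlations of same-numbered libraries over 0.1 (range -0.0863 to 0.357). This rule cannot show that the libraries are unpaired, as 51 of 80 library comparisons were closest to the same number. Members and the 20 gene lists were chosen with earlier results of these data known. Named were the members, Rag1, Rag2, up to 3 called genes per direction and list at 0.5 CPM or more, and 3 genes most like a member, given here for some. Alternatives were DESeq2-type size factors, no filter, DESeq2 1.42.0, limma-voom (limma 3.58.1), a replicate block, summed transcript counts, fits of the positions compared, each library left out, and duodenal libraries 1 and 2 left out.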

Additional observations from a re-analysis of the deposited data

Results flagged for a closer look

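Ms4a1 differed in its distance from the inguinal node among the 4 gut positions, by 1.49 on the log2 scale between the highest and lowest position (F-test, adjusted p = 1.77e-07). Jchain did so by 1.51 (adjusted p = 0.000802), and duodenal libraries 1 and 2, which held 1.67 and 1.11 CPM, were also those with pancreatic transcripts.

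Jejunal library 2 held 3.76 CPM of Igkc, and its gap to the next library was 0.831 of the range of the 4 jejunal libraries. Ceco-colonic library 4 held 1.60 CPM of Mzb1, with a gap of 0.864 of the range. Chance gives a gap past the limit of Dixon's test in about 1 in 20 groups, and 2 of the 45 groups of a member and a position had one.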

How the results depend on the processing

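The 5 counts of called members were recomputed in the alternative fits, which gave 139 values, and 135 of these stayed within 1.5 times. The other 4 were 1 called member among the gut positions without duodenal libraries 1 and 2, 2 in small intestinal against ceco-colonic nodes with a replicate block (Mzb1 joined, at adjusted p = 0.0232), and, over the 6 pairs, 13 with the block and 5 without those libraries, against 8. The 5 pair calls that the block added were Ms4a1 in duodenal against jejunal (adjusted p = 0.0229), Ighm (0.0327) and Mzb1 (0.0285) in duodenal against ileal, and Cd79b (0.0414) and Mzb1 (0.00825) in ileal against ceco-colonic nodes. It also added Cd79b in gut-draining against inguinal nodes (5 to 6 members), Mzb1 among the gut positions (2 to 3), and Igkc (0.0270) and Pax5 (0.0458) in duodenal against inguinal nodes, and ended no member's call. As a hint that the replicate numbers pair the libraries, 51 of 80 library comparisons were closest to the same number, each out of 4 libraries. If the numbers do pair them, the fits without the block and the permutations ignored it. With each library left out, called members in gut-draining against inguinal nodes numbered 5 to 6. Over all 179 results, 12 of 4851 values changed sign. With summed transcript counts, Pax5 gave 0.16 in gut-draining and 0.37 in ileal against inguinal nodes. Without duodenal libraries 1 and 2, Jchain gave -0.0116 and Jchain-201 -0.0242. With 1 library left out, the range was -0.188 to 0.0147 for Cd79a, -0.0603 to 0.0130 for Ighm-201, -0.00713 to 0.135 for Jchain-201, -0.0771 to 0.404 for Jchain-202 and -0.0762 to 0.179 for Rag2 in gut-draining against inguinal nodes, -0.0150 to 0.0675 for Ighm in small intestinal against ceco-colonic nodes, and -6.47 to 1.56 percentage points for the share of Jchain-201. None of these was called before or after, except Pax5, and the cause was not tested. Genes called in duodenal against jejunal nodes (831) ranged with 1 library left out from 207 to 1175 and were 1716 with DESeq2, 513 with limma-voom, 1597 with the block, 113 without duodenal libraries 1 and 2 and 0 when edgeR was fitted to those positions alone (3378 at an unadjusted p under 0.05). In jejunal against ileal nodes (20) they were 7 to 25 with 1 library left out, 90 with DESeq2, 38 with the block and 2 for those positions alone. In duodenal against ileal nodes (4297) they were 2306 to 4732 with 1 library left out, 1267 without the 2 libraries and 2571 for those positions alone, and in duodenal against ceco-colonic nodes (4825) 3036 and 3113. Depth limits low genes, such as Pax5 at 28 to 117 counts per library and Igha at 3 to 10 per inguinal library.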
